A study of Mus musculus with 6 samples.

Results

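Matrix metalloproteinases (MMPs), ADAMTS proteases, ADAMTS-like proteins and the tissue inhibitors of metalloproteinases (TIMPs) were followed in RNA sequencing of mouse salivary gland. Members were chosen by gene symbol alone, with no measured value in the rule: 50 of the 24054 genes in the deposited table carried a symbol of these families, namely 22 MMPs, 19 ADAMTS, 5 ADAMTS-like and 4 TIMP genes. In the K5-RANKL group (genotype K5-rtTA:TetO-RANKL) the keratin 5 promoter drives a doxycycline-dependent activator in basal epithelial cells, and the activator switches on a transgene for RANKL, a cytokine of the TNF family best known for osteoclast formation. The control group was monogenic, and which transgene those mice carried is not given in the sources used here; both groups were given doxycycline in food and water for 2 weeks, starting at 9 weeks of age. There were 3 libraries in each group, each made from the pooled salivary tissue of 5 mice; the p-values therefore measure differences among pools, not among single animals. The labels state neither strain nor sex, nor which salivary glands were pooled.

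MMPs are zinc proteases that are made as inactive proenzymes and that between them can cut most proteins of the extracellular matrix; some are secreted and others are held at the cell surface. ADAMTS proteases carry thrombospondin repeats and cut proteoglycans, procollagens and von Willebrand factor, and ADAMTS-like proteins share their non-catalytic parts and have no protease domain. TIMPs bind the active site of these enzymes and block it. In salivary glands, matrix turnover accompanies branching during development and the response of the adult gland to injury and inflammation.

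Libraries held 13875951 to 17921815 counts (controls) and 14149734 to 16412579 counts (K5-RANKL). Values are CPM, the edgeR scale of counts relative to a library size adjusted by trimmed mean of M values (TMM). The TMM factor averaged 0.708 ± 0.0293 over controls and 1.41 ± 0.0802 over K5-RANKL libraries (SD, n = 3 each). Scaling by library totals instead moved the median over all genes tested from 0.01 to 1.01 log2, so every direction given here is one relative to TMM. The 8 listed acinar markers, which identify the tissue as salivary gland, summed to 104000 to 107600 CPM in controls and 18350 to 26850 CPM in K5-RANKL libraries, and all 8 were lower there. In bulk tissue, fewer cells of a type and less RNA per cell cannot be told apart.

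A group of 10 of the 22 MMP genes lies side by side on mouse chromosome 9, from 7272514 to 7699585 in GRCm38.p6, with no other protein-coding RefSeq gene between them. The AP-1 motif TGAGTCA, the binding site of Fos and Jun factors and a textbook element of collagenase and stromelysin promoters, was searched on both strands in the 250 bases before each RefSeq start site. It occurred in 7 of the 10 cluster genes and in 0 of the 26 members elsewhere that had a start site in the table; 5.16% of 27025 genes genome-wide had it. A match describes letters in this window only. The last 120 bases before the start are shown for those 7, in chromosomal order, 5′ to 3′ on the gene's own strand, because these are the windows with the shared motif. Capitals mark TGAGTCA (or TGACTCA, the same site on the other strand) and TATAAA, the letters of a TATA box. The motifs do not overlap. Where TATAAA is marked, its first base stood between 7 bases (Mmp3) and 49 bases (Mmp1b) before the start. Whether each match acts as a TATA box was not tested.
Mmp13, chr9:7272394-7272513, plus strand: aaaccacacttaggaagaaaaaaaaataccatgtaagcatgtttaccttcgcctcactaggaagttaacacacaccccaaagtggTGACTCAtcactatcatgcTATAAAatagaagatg
Mmp12, chr9:7347254-7347373, plus strand: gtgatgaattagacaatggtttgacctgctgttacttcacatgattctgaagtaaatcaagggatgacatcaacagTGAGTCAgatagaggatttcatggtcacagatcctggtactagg
Mmp1b, chr9:7388027-7388146, minus strand: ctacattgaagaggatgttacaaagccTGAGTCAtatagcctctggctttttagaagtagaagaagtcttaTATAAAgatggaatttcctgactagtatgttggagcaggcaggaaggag
Mmp3, chr9:7445702-7445821, plus strand: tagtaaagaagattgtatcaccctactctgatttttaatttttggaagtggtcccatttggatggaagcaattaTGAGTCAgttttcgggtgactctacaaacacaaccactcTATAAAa
Mmp1a, chr9:7464021-7464140, plus strand: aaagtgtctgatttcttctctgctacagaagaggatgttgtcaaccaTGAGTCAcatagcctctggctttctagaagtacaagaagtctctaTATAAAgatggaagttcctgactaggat
Mmp10, chr9:7502222-7502341, plus strand: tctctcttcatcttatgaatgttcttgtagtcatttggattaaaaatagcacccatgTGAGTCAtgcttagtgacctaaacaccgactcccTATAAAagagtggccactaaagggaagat
Mmp7, chr9:7691970-7692089, plus strand: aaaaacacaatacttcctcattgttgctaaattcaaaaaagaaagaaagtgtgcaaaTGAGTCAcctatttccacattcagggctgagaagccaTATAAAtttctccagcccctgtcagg

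The first base of the AP-1 letters stood between 35 bases (Mmp13) and 93 bases (Mmp1b) before the start. Mmp12 has a further RefSeq start upstream, and the window shown lies inside that longer gene model, in no GENCODE exon; its other window held no AP-1 letters. The Mmp23 window is placed likewise, and the Mmp1b window shares 21 bases with a GENCODE exon of Mmp1b. For contrast, windows of 3 strongly changed genes outside the cluster are shown: Mmp14 and Mmp23, which with Mmp12 had the highest fold changes among MMPs above 5 CPM, and Timp1, the TIMP that changed most. None of these 3 held either motif.
Mmp14, chr14:54431478-54431597, plus strand: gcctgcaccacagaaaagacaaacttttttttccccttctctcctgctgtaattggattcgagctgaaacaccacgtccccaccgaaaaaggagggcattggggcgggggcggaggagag
Mmp23, chr4:155653385-155653504, minus strand: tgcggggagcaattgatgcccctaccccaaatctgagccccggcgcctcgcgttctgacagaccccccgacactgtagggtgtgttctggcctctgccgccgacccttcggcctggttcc
Timp1, chrX:20870046-20870165, plus strand: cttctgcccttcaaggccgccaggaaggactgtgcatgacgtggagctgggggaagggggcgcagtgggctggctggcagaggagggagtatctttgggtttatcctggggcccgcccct

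TATAAA was found in 10 of the 36 members with a start site (27.8%) and in 14.3% of all genes. The NF-kB consensus was found in 4 of the 36 (11.1%), namely Mmp12 at its upstream start, Mmp25, Adamts9 and Adamts20, and in 8.23% of all genes.

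Most measurable members were higher in K5-RANKL glands. Of the 50 members 47 had a count in some library and 41 passed the filter on low counts. Of those 41, 29 rose, 2 fell and 10 did not pass (edgeR quasi-likelihood test, Benjamini-Hochberg adjusted p under 0.05 over 14044 genes). Over all genes tested 66.2% were called, 34.2% higher and 32.1% lower. Of the 29, 27 rose at least 2-fold; 16.9% of all genes tested did so. Both members that fell did so by at least 2-fold, as did 9.01% of all genes tested. By library totals 39 of the 41 were called higher and 1 lower.

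The filter itself favours members that are high in 1 group, so the counts were also taken over the 25 members whose control libraries alone met it. Of these 25, 15 rose, 1 fell and 9 did not pass; their median log2 fold change was 1.01. Among the 12603 genes chosen the same way 30.8% rose and 35.4% fell, with a median of −0.05. The other 16 tested members passed only with the help of K5-RANKL libraries; they include Adamts13, Mmp12, Mmp7, Mmp13 and Timp1, the genes with the highest fold changes of all.

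Of 15 tested MMPs 14 rose and none fell, of 17 ADAMTS genes 11 rose and 2 fell, of 5 ADAMTS-like genes 2 rose and of 4 TIMPs 2 rose; by library totals 15, 15, 5 and 4 of them were called higher, and 1 ADAMTS gene lower. Of the members whose controls alone met the filter, 8 of 9 MMPs, 4 of 8 ADAMTS genes, 2 of 5 ADAMTS-like genes and 1 of 3 TIMPs rose, and 1 ADAMTS gene fell. The difference between families was not tested. For 29 members every K5-RANKL library lay above every control library in CPM, where 36.3% of all genes tested did so. Of all genes tested 70.4% had groups apart in either direction. These 29 are the members called higher, and 14 of them passed the filter only with the help of K5-RANKL libraries. For those 14 the separation was largely fixed by the filter, so the 36.3% is not a like background for them.

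**Figure D1:**
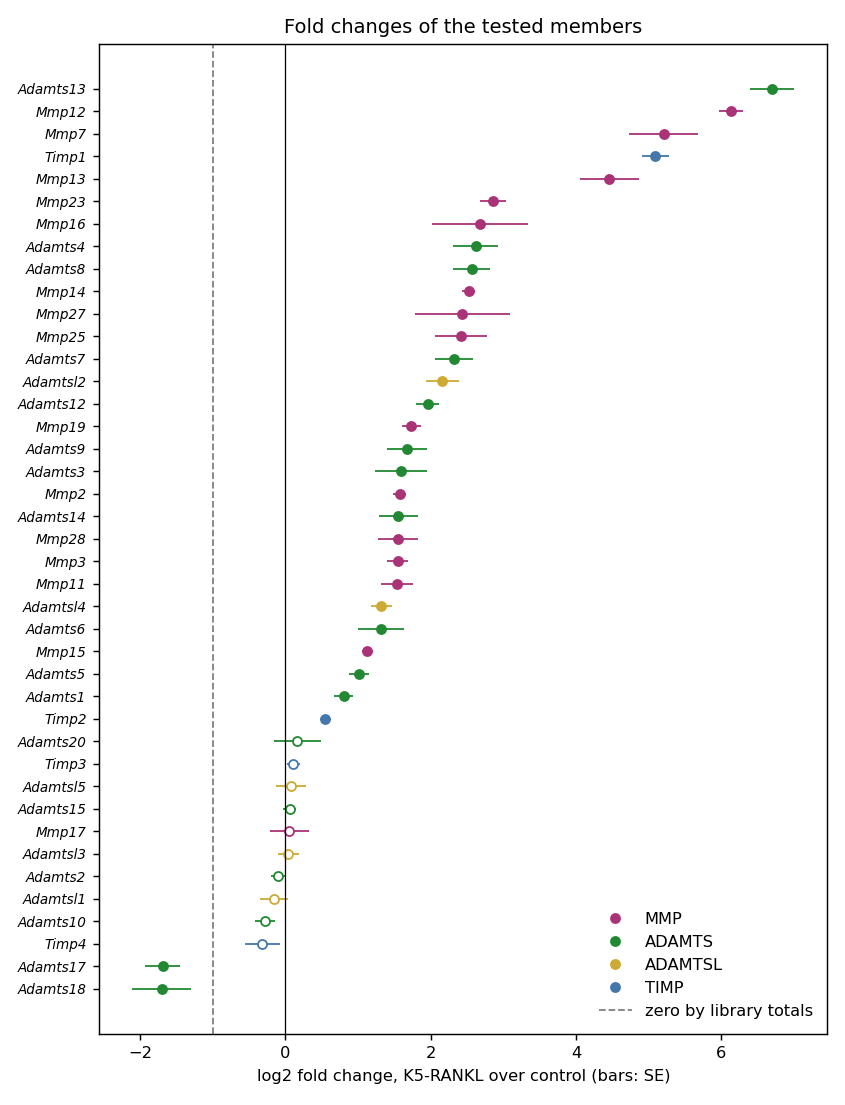
Log2 fold change (x axis, TMM scale) with its SE for each of the 41 tested members, coloured by family; filled points passed the test and open points did not. Of the tested members 29 lie to the right and passed, 2 (Adamts17 and Adamts18) lie to the left and passed, and the dashed line marks where zero falls by library totals, under which 39 are called higher and 1 lower.

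In the chromosome 9 cluster Mmp12, Mmp7 and Mmp13 had the highest fold changes. Mmp12 encodes macrophage elastase, which cuts elastin (Entrez 17381, chromosome 9 from 7344397 to 7360461). It stood at 0.737, 0.884 and 0.391 CPM in the controls and at 44.2, 47.6 and 46.9 CPM in the K5-RANKL libraries. All 3 K5-RANKL libraries were close together and far above the controls, from 22 counts in total in controls to 2960. The log2 fold change was 6.13 (SE 0.16, 70.1-fold, edgeR adjusted p = 7.9e-15). Its exons share 157 bases with Mmp1b on the opposite strand, and Mmp1b had 0 counts in every library.

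Mmp13, the main interstitial collagenase of rodents, which cuts fibrillar collagen (Entrez 17386), held 4 counts in all controls together and 178 in K5-RANKL libraries. In CPM these were 0.0922, 0.196 and 0.0782 against 2.74, 2.62 and 2.94. The groups lay well apart although the level remained low, and the log2 fold change was 4.46 (SE 0.41, edgeR adjusted p = 3.43e-08). Mmp7, encoding matrilysin, a small epithelial protease without the hemopexin domain (Entrez 17393), had 0, 0 and 0.313 CPM in controls and 5.35, 3.96 and 4.52 CPM in K5-RANKL libraries. All 4 of its control counts came from control 3, so its log2 fold change of 5.21 (SE 0.47, edgeR adjusted p = 5.7e-08) rests on that library for its size: without control 3 the fitted value was 9.31, against controls at 0.

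Mmp3, encoding stromelysin 1, which cuts many matrix proteins and activates other proenzymes (Entrez 17392), was the cluster gene with the most counts in controls. It stood at 5.62, 8.74 and 6.34 CPM in controls and at 20.3, 22.4 and 17.4 CPM in K5-RANKL libraries. Every K5-RANKL library exceeded every control, and Mmp3 rose by 1.54 log2 (SE 0.15, edgeR adjusted p = 1.24e-07). Mmp27 was scarce and also rose, by 2.44 (SE 0.65, edgeR adjusted p = 0.00327), from 4 counts in controls to 43.

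The remaining cluster genes could not be tested. Mmp10, encoding stromelysin 2, had 0 control counts and 17 K5-RANKL counts, a level 2.98 times a floor of 3 counts over the control group. Mmp8, the neutrophil collagenase gene, had 2 control counts and 21 K5-RANKL counts, a ratio of 5.53 (95% counting interval 1.35 to 48.6). Mmp20, the enamel protease gene, had 0 and 6 counts, a level 1.05 times the same control floor, and no direction is read from it. The interstitial collagenase genes Mmp1a and Mmp1b were at 0 in all 6 libraries, with a limit from 3 counts of 0.0887 CPM over the control group and 0.0467 CPM over the K5-RANKL group. These limits and counting intervals cover counting error only. The multiples of the floor take the K5-RANKL count as exact, so they are not lower bounds on a fold change. Of the 5 tested cluster genes, Mmp3 alone met the filter in controls; Mmp12, Mmp13, Mmp7 and Mmp27 passed it through their K5-RANKL libraries, so their direction was largely fixed by the filter. The 2 genes at 0 hold the same AP-1 letters in their windows as the 5 other genes shown.

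**Figure D2:**
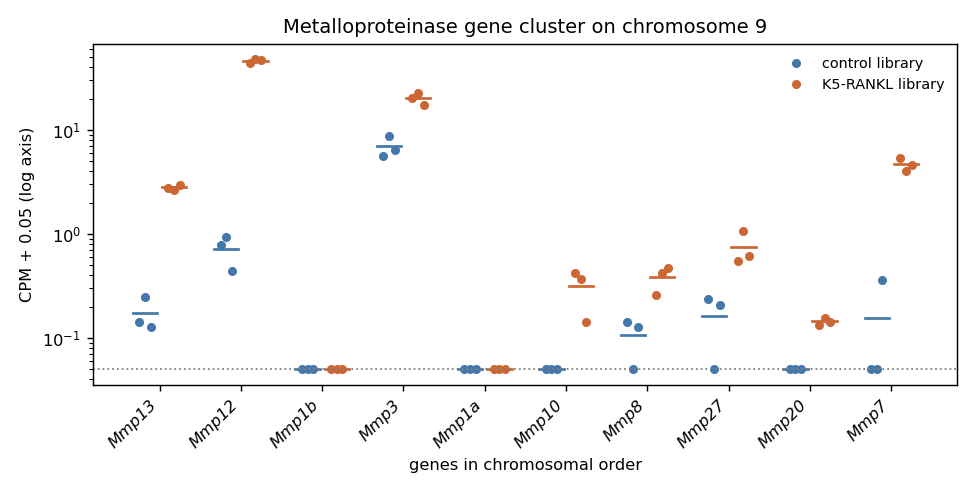
CPM plus 0.05 (log axis) of the 10 chromosome 9 MMP genes in chromosomal order, by library, 3 per group; points are libraries, bars are group means and the dotted line is 0 counts. Mmp12 and Mmp3 reach 46.2 and 20.02 CPM on average in K5-RANKL libraries, while Mmp1a and Mmp1b are at 0 throughout.

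The protein-coding genes beside the cluster went different ways. On the side of Mmp13, Dcun1d5 stood at −0.01 and Dync2h1 fell by 1.00 log2; on the side of Mmp7, Tmem123, Birc2 and Birc3 rose by 1.49, 1.40 and 2.22 (edgeR adjusted p = 2.54e-11, 1.21e-10 and 3.49e-12). Birc2 and Birc3 encode inhibitors of apoptosis that act in NF-kB signalling.

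Mmp2 and Mmp14 encode partner enzymes: the membrane protease MT1-MMP, from Mmp14, activates the gelatinase proenzyme from Mmp2, with TIMP2 as the bridge between them. Mmp14 (Entrez 17387, chromosome 14 from 54431598 to 54442456) stood at 17.6, 21.01 and 18.7 CPM in controls and 115, 103 and 111 CPM in K5-RANKL libraries. The groups were widely separated, with a log2 fold change of 2.52 (SE 0.09, 5.74-fold, edgeR adjusted p = 1.9e-13). Mmp2 (Entrez 17390, chromosome 8 from 92827290 to 92853421) stood at 21.7, 27.3 and 27.9 CPM in controls and 77.5, 74.6 and 76.9 CPM in K5-RANKL libraries. It rose by 1.57 log2 (SE 0.09, edgeR adjusted p = 9.92e-11), and its 3 K5-RANKL libraries differed little. Timp2, the bridge, was 123, 131 and 131 CPM in controls and 180, 200 and 183 CPM in K5-RANKL libraries. It passed with a small change, a log2 fold change of 0.55 (SE 0.07, 1.46-fold, edgeR adjusted p = 3.68e-06).

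Mmp15 encodes MT2-MMP, another membrane-anchored enzyme, and was already abundant in control glands. It stood at 52.6, 59.6 and 61.2 CPM in controls and at 126, 128 and 124 CPM in K5-RANKL libraries. The groups did not overlap, and it rose by 1.12 (SE 0.08, 2.18-fold, edgeR adjusted p = 7.75e-10). The scarcer membrane-type genes Mmp25 and Mmp16 rose by 2.42 (SE 0.36) and 2.68 (SE 0.66), with edgeR adjusted p = 4.86e-05 and 0.00171. For Mmp16, 3 control counts against 39 give a ratio of 6.84 (95% counting interval 2.18 to 34.6), and without control 3 its log2 fold change was 3.49. Mmp25, a protease gene of leukocytes, was uneven among controls, at 0.0922 CPM in control 1 and at 1.08 and 1.25 CPM in the others. Mmp17 did not pass (0.05, SE 0.27, edgeR adjusted p = 0.871; 1.76 ± 0.266 and 1.80 ± 0.473 CPM, SD, n = 3 each), and its log2 fold change was 1.05 by library totals. Mmp24 was not tested; it had 2 control counts and 11 K5-RANKL counts, a ratio of 2.90 with a 95% counting interval from 0.632 to 26.9.

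Mmp23, Mmp19, Mmp11 and Mmp28 rose as well. Mmp23, a cysteine-array protease that is cut from the membrane as it is activated (Entrez 26561), went from 1.29, 1.77 and 2.27 CPM to 14.6, 12.1 and 12.5 CPM. No libraries of the groups overlapped, and the log2 fold change was 2.86 (SE 0.18, edgeR adjusted p = 3.43e-10). Mmp19 went from 5.44, 4.32 and 5.79 CPM to 17.1, 16.2 and 18.6 CPM, a log2 fold change of 1.73 (SE 0.13, edgeR adjusted p = 2.7e-09). Mmp11, encoding stromelysin 3, which furin activates inside the cell, went from 1.75, 2.06 and 1.56 CPM to 5.64, 5.83 and 4.10 CPM (1.54, SE 0.22, edgeR adjusted p = 8.01e-06). The groups were apart for both genes. Mmp28, the epilysin gene of epithelia, rose by 1.55 (SE 0.27, edgeR adjusted p = 7.43e-05), from 1.18 ± 0.258 to 3.48 ± 0.866 CPM (SD, n = 3 each). Mmp21 was at 0 in every library. Because the strand setting of the counting is not given, shared exon bases on the opposite strand leave 3 of these uncertain. Mmp19 overlaps Tmem198b by 789 bases, Mmp28 overlaps 1700020L24Rik, at 19 control and 114 K5-RANKL counts, by 466 bases, and Mmp11 overlaps the far more counted Chchd10, at 4491 control and 3314 K5-RANKL counts, by 155 bases.

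**Figure D3:**
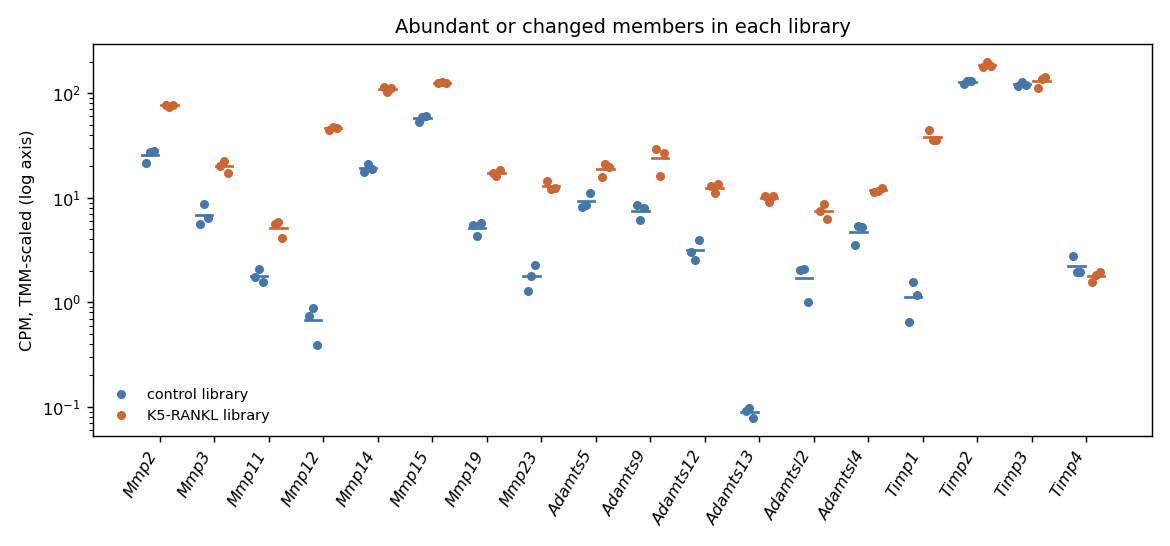
CPM (TMM-scaled, log axis) by library, 3 per group, for the 18 members that are TIMPs or reach 5 CPM with at least a 2-fold change; each point is a library and each bar the mean of its group. Mmp12, Adamts13 and Timp1 are the genes whose groups lie farthest apart, and Timp3 and Timp4 are those whose groups overlap.

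Adamts13 had the highest fold change of any member. It encodes the protease that cleaves von Willebrand factor and is known as a product of liver stellate cells and endothelium (Entrez 279028, chromosome 2 from 26973361 to 27009625). Each control library held 1 count, and the K5-RANKL libraries held 250, 172 and 225 counts, which is 10.4, 9.20 and 10.5 CPM. The K5-RANKL libraries were alike and every control was close to 0. The ratio of summed counts was 114 (95% counting interval 38.7 to 552), and the fitted log2 fold change was 6.70 (SE 0.30, edgeR adjusted p = 4.61e-12). Vwf, encoding its substrate, stood at 24.8 ± 3.48 and 27.5 ± 1.29 CPM (SD, n = 3 each) and did not pass (0.15, SE 0.10, edgeR adjusted p = 0.188).

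Of the 7 genes for proteoglycan-cleaving enzymes, 5 rose and 2 did not pass; by library totals all 7 were called higher. Adamts9, a protease of versican and aggrecan, went from 8.48, 6.09 and 8.06 CPM to 29.1, 16.2 and 26.7 CPM. K5-RANKL 2 was the low library of its group and still lay above every control; Adamts9 rose by 1.67 (SE 0.28, edgeR adjusted p = 0.00186). Adamts5, encoding the aggrecanase best known from cartilage, went from 8.20, 8.54 and 11.1 CPM to 15.9, 20.9 and 19.8 CPM. The groups did not overlap, and it rose by 1.01 (SE 0.14, edgeR adjusted p = 6.43e-06).

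The other aggrecanase gene, Adamts4, and Adamts8 were scarce and rose by 2.62 (SE 0.31) and 2.56 (SE 0.25), from 0.626 ± 0.257 to 3.84 ± 0.837 CPM and from 0.712 ± 0.0704 to 4.22 ± 0.405 CPM (edgeR adjusted p = 9.38e-07 and 9.16e-08). Adamts1 rose by 0.80 (SE 0.13, edgeR adjusted p = 4.2e-05), from 6.82 ± 0.641 to 11.9 ± 1.33 CPM. Adamts15, at 18.5 ± 0.782 and 19.3 ± 0.62 CPM, and Adamts20, at 0.874 ± 0.215 and 0.959 ± 0.0904 CPM (SD, n = 3 each throughout), did not pass, with log2 fold changes of 0.06 (SE 0.09) and 0.16 (SE 0.32).

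The genes for the procollagen N-proteinases, which trim fibrillar procollagens before fibrils form, split. Adamts2, the most counted of them, stood at 32.6 ± 4.89 and 30.4 ± 1.01 CPM (SD, n = 3 each) and did not pass (−0.10, SE 0.10, edgeR adjusted p = 0.354); by library totals its value was 0.89. Adamts14 and Adamts3 rose by 1.56 (SE 0.27) and 1.59 (SE 0.36), from 0.917 and 0.408 CPM on average to 2.73 and 1.25 CPM (edgeR adjusted p = 6.13e-05 and 0.00089). Col1a1 and Col3a1, which encode procollagen substrates of Adamts2, rose by 2.86 and 3.13 (edgeR adjusted p = 3.07e-05 and 6.53e-09).

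Adamts12 and Adamts7, whose products cleave cartilage oligomeric matrix protein, both rose. Adamts12 went from 3.04, 2.55 and 3.91 CPM to 12.9, 11.1 and 13.4 CPM, with no overlap and a log2 fold change of 1.96 (SE 0.16, edgeR adjusted p = 9.85e-09). Adamts7 rose by 2.32 (SE 0.26, edgeR adjusted p = 5.35e-07), from 0.944 ± 0.345 to 4.61 ± 0.569 CPM (SD, n = 3 each).

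Adamts17 and Adamts18 were the members that fell. Adamts17, a relative of the fibrillin-associated enzymes (chromosome 7 from 66839699 to 67153171), went from 3.04, 2.95 and 4.07 CPM to 1.12, 0.91 and 1.07 CPM. Adamts18 (chromosome 8 from 113697123 to 113849343) went from 0.922, 0.884 and 1.25 CPM to 0.249, 0.214 and 0.466 CPM. Neither gene had overlapping groups, and they fell by 1.69 (SE 0.24) and 1.71 (SE 0.41) on the log2 scale, with edgeR adjusted p = 8.16e-06 and 0.00132. By library totals the log2 fold changes were −0.69 and −0.72 and the call of Adamts18 was lost (adjusted p = 0.114).

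Adamts6 and Adamts10, close relatives that act on fibrillin microfibrils and cell contacts, differed in their calls: Adamts6 rose by 1.32 (SE 0.31, edgeR adjusted p = 0.00131) from 0.866 ± 0.408 to 2.16 ± 0.304 CPM, and Adamts10, at 9.91 ± 1.51 and 8.12 ± 0.55 CPM (SD, n = 3 each), did not pass (−0.28, SE 0.13, edgeR adjusted p = 0.0764). Without control 3 Adamts10 was called lower (−0.41, adjusted p = 0.0202), and by library totals it was called higher (0.71). Adamts16 and Adamts19 were not tested. Their control counts were 5 and 0 and their K5-RANKL counts 16 and 15. For Adamts19 that is 2.63 times the floor of 3 control counts, with the K5-RANKL count taken as exact.

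Of the ADAMTS-like genes, whose products sit in fibrillin-rich matrix, Adamtsl2 and Adamtsl4 rose. Adamtsl2 went from 2.03, 2.06 and 1.02 CPM to 7.47, 8.72 and 6.29 CPM (log2 fold change 2.16, SE 0.23, edgeR adjusted p = 2.55e-07). Adamtsl4, needed for the anchoring of the eye lens, went from 3.50, 5.40 and 5.24 CPM to 11.2, 11.7 and 12.5 CPM (1.32, SE 0.15, edgeR adjusted p = 5.97e-07). The groups of both genes were apart. Adamtsl1, Adamtsl3 and Adamtsl5 did not pass, with log2 fold changes of −0.16 (SE 0.19), 0.04 (SE 0.15) and 0.08 (SE 0.21); by library totals all 5 ADAMTS-like genes were called higher.

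Among the inhibitors, Timp1 changed far more than the rest. Timp1 (Entrez 21857, chromosome X from 20870166 to 20874737) encodes the inducible, secreted TIMP. It stood at 0.645, 1.57 and 1.17 CPM in controls and at 44.5, 35.5 and 35.6 CPM in K5-RANKL libraries. The log2 fold change was 5.09 (SE 0.19, 34.1-fold, edgeR adjusted p = 2.07e-12).

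Timp3, encoding the TIMP that binds to matrix and also inhibits ADAMTS aggrecanases, did not pass. It stood at 118, 127 and 119 CPM in controls and 113, 138 and 142 CPM in K5-RANKL libraries, and the groups overlapped because K5-RANKL 1 lay below all controls. The log2 fold change was 0.11 (SE 0.09, edgeR adjusted p = 0.268), it was 0.20 and called without K5-RANKL 1 (adjusted p = 0.034), and it was 1.10 and called by library totals. Timp4 was scarce and did not pass, at 2.77, 1.96 and 1.96 CPM in controls and 1.58, 1.82 and 1.96 CPM in K5-RANKL libraries (−0.32, SE 0.24, edgeR adjusted p = 0.252), and was called higher by library totals (0.68). Timp3 shares 1733 exon bases with Syn3 on the opposite strand, and Syn3 itself held 107 control and 100 K5-RANKL counts.

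Compared per kilobase of exon, the order of the inhibitors changed. In controls Timp2 led at 32.9 ± 1.15 CPM per kb, followed by Timp3 at 14.9 ± 0.588 and Timp1 at 1.27 ± 0.523. In K5-RANKL libraries Timp1, at 43.4 ± 5.83 CPM per kb, was next to Timp2, at 48.2 ± 2.72, and their library values overlapped (SD, n = 3 each). Of the summed TIMP level per kb, Timp1 made up 2.55% ± 0.961 (controls) and 40.1% ± 4.57 (K5-RANKL), and Timp2 66.5% ± 0.938 and 44.6% ± 2.72.

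Among the proteases reported, the highest levels per kb in controls were those of Mmp15 (10.7 ± 0.843), Mmp2 (7.60 ± 1.02) and Mmp3 (3.83 ± 0.906). Adamts2 (3.49 ± 0.523) and Mmp14 (3.21 ± 0.292) came next, and the libraries of Mmp3, Adamts2 and Mmp14 overlapped. In K5-RANKL libraries Mmp15 (23.4 ± 0.288) and Mmp2 (22.6 ± 0.46) were close together, followed by Mmp14 (18.4 ± 1.01), Mmp3 (11.1 ± 1.40) and Mmp12 (6.39 ± 0.25), all in CPM per kb (SD, n = 3 each). Mmp12 ranked 36th of the 50 members in controls and 8th in K5-RANKL libraries. All levels per kb, those of the TIMPs included, divide by the union of annotated exons, 7.24 kb for Mmp12 and 1.80 kb for Mmp3. The expressed transcripts can be shorter, so orders between genes depend on the annotation.

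**Figure D4:**
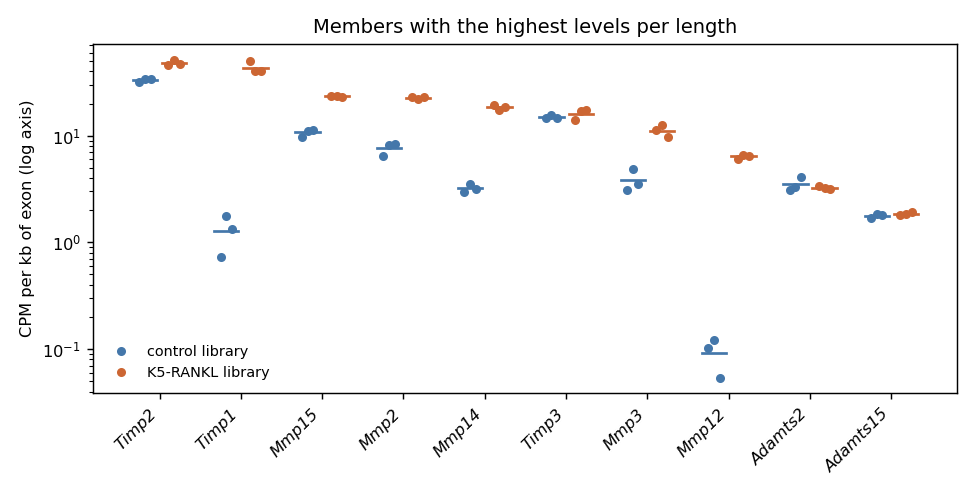
CPM per kilobase of exon (log axis) in each library for the 10 members that rank among the 8 highest in either group; each point is a library and each bar the mean of its group. Timp1 moves from 1.27 CPM per kb in controls to 43.4 in K5-RANKL libraries, beside Timp2 at 48.2, while Timp3, Adamts2 and Adamts15 have overlapping groups.

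A list of 18 genes covered proenzyme activation and control at the cell surface, and it holds inhibitors as well as activators. Its counts therefore do not measure activation. Of these genes 15 were tested: 10 rose, 4 fell and Reck, a membrane inhibitor of MMPs, did not pass (−0.03, SE 0.17). Over all genes tested 34.2% rose and 32.1% fell. The median of the list was 1.34, and by library totals 14 were called higher and none lower. Thbs1, encoding thrombospondin 1, rose by 4.01 (SE 0.09) from 19.5 ± 0.677 to 314 ± 16.8 CPM (SD, n = 3 each). The inhibitor gene Tfpi2 rose by 3.66 (SE 0.36), and Plat, encoding tissue plasminogen activator, by 3.63 (SE 0.13). Plg, encoding plasminogen, had 0 control counts and 1 K5-RANKL count. The proprotein convertase genes went apart. Furin fell by 0.65 (SE 0.10, edgeR adjusted p = 2.32e-05), from 156 ± 24.6 to 100 ± 5.07 CPM, and Pcsk6 by 0.42 (SE 0.12, edgeR adjusted p = 0.00386). Pcsk5 rose by 2.24 (SE 0.16, edgeR adjusted p = 1.25e-09). By library totals Furin and Pcsk6 stood at 0.35 and 0.58 and were called higher.

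Of 17 listed ADAM and astacin genes, relatives in the wider metalloprotease superfamily, 14 were tested: 9 rose and 3 fell, and the median was 0.63. Among all genes tested 34.2% rose and 32.1% fell. Adam8, a sheddase gene of leukocytes, rose by 3.45 (SE 0.14) from 2.17 ± 0.118 to 23.7 ± 2.21 CPM. Adam17, encoding the TNF-converting enzyme, rose by 1.69 (SE 0.08) and Bmp1, encoding the procollagen C-proteinase, by 1.87 (SE 0.10). Adam28 fell by 1.96 (SE 0.23, edgeR adjusted p = 6.96e-07). By library totals 11 of the 14 were called higher and 2 lower. Of the ADAMTS-like relatives Papln and Thsd4, Papln fell by 0.66 (SE 0.27, edgeR adjusted p = 0.0416) and Thsd4 stood at 0.03. By library totals Papln stood at 0.33, and its call was also lost with DESeq2, with limma voom, with at least 50 counts required, and when control 2, control 3, K5-RANKL 1 or K5-RANKL 3 was left out.

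Of 15 listed matrix substrates 12 were tested: 10 rose, the brain proteoglycan gene Bcan fell (−1.46, SE 0.32) and Vwf did not pass. Among all genes tested 34.2% rose and 32.1% fell. The median of the list was 2.90, and by library totals 11 were called higher and none lower. Fbn2 had the highest fold change, 3.98 (SE 0.37), and Vcan, encoding the proteoglycan versican, rose by 2.62 (SE 0.12) from 4.31 ± 0.082 to 26.6 ± 2.23 CPM (SD, n = 3 each). Acan and Col2a1, the cartilage substrates, had 0 control counts and 4 K5-RANKL counts each.

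Markers of other cell types also differed between the groups, as did 66.2% of all genes tested. All 7 macrophage markers rose, with none at 0, and their sum went from 336.4 to 411.3 CPM in controls to 2271 to 2383 CPM in K5-RANKL libraries. Of 5 osteoclast markers 4 were tested and rose, from a sum of 37.6 to 40.0 CPM to one of 410.5 to 554.1 CPM, and Calcr was at 0 in controls with 17 counts in K5-RANKL libraries. Acp5 was most of the control sum, at 33.7 CPM on average. Acp5 and Ctsk together were most of the K5-RANKL sum, at 279 and 181 CPM. Of 6 fibroblast markers 5 rose and Dcn did not pass, with sums of 413.6 to 513 CPM and 1015 to 1096 CPM. Most of the K5-RANKL sum was the collagen gene Col1a2, which went from 110 to 638 CPM on average. Dcn, the largest part of the control sum, stood at 245 and 226 CPM. The 6 neutrophil markers in the table summed to 1.84 to 3.36 CPM and 8.81 to 11.3 CPM, and 3 were tested and rose. Csf3r made up most of the K5-RANKL sum, at 6.66 CPM on average. Among the untested markers, Mpo stood at 0.269 and 0.214 CPM and Elane at 0.0829 and 0.0334 CPM. Retnlg, also untested, stood at 0.0588 and 0.341 CPM. All tested markers of these 4 lists, Dcn included, were called higher by library totals.

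Of 7 basal and myoepithelial markers 4 rose and 2 fell. Krt5, Krt14, Krt17 and Trp63 rose, the contractile genes Acta2 and Cnn1 fell, and Myh11 did not pass. Sums were 391.3 to 400.4 CPM in controls and 659.8 to 1174 CPM in K5-RANKL libraries, and they mix these opposite directions. By library totals 6 were called higher and none lower. Of 4 T cell markers 3 rose (4 by library totals), with sums of 38.2 to 45.8 and 86.9 to 98.3 CPM. The 3 tested granular duct markers fell, 2 of them by library totals too, with sums of 21520 to 23290 and 6321 to 8460 CPM. Of 7 duct markers 3 rose and 4 fell (4 and 3 by library totals), and their sums were 671.9 to 712.3 and 906 to 952.7 CPM. Mast cell sums were 48.8 to 60.9 and 44.0 to 49.2 CPM although 4 of the 5 markers rose and 1 fell. The marker that fell was Kit, most of the control sum, from 46.1 to 23.7 CPM on average. The other 4 rose by 1.17 (Cma1) to 1.48 (Cpa3) log2. B cell sums were 68.5 to 77.8 and 81.3 to 88.7 CPM, with 1 of 3 markers risen, and endothelial sums 86.9 to 100.2 and 104.3 to 109.9 CPM, with 2 of 3 risen and 1 fallen. Chondrocyte sums were 43.7 to 54.6 and 37.6 to 40.3 CPM, with 1 of 2 tested markers fallen. Nearly all of that sum was Sox9, the marker that fell, at 48.8 and 38.2 CPM on average. Comp stood at 0.857 and 0.844 CPM. Col2a1 and Matn1 had 0 control counts and 4 and 3 K5-RANKL counts. By library totals 4 mast cell, 3 B cell, 3 endothelial and 1 chondrocyte marker were called higher and none of these lists had one called lower. The part of these cell types in the changes of the protease and inhibitor genes was not tested.

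Libraries were compared with the average of the others of their group over the 41 tested members, on log2(CPM + 0.5). The median deviation was −0.10 in control 1, with 26 members below, and 0.08 in control 2, with 26 above. It was 0.04 in K5-RANKL 3, with 27 above, and −0.04 in K5-RANKL 2, with 23 below. Over all genes tested 50.3%, 49.7%, 48.1% and 49.5% lay below in control 1, control 2, K5-RANKL 3 and K5-RANKL 2. Control 1 differed more from the other controls (chi-square per gene 37.0 and 38.3) than those did from each other (6.26), and Mmp25 was lower there by −1.49 log2. Without control 1 Mmp25 rose by 1.91 (edgeR adjusted p = 7.11e-06). In K5-RANKL 2 the basal and myoepithelial markers summed to 659.8 CPM, against 1174 and 1120 CPM in K5-RANKL 1 and 3. Krt5 stood at 161 CPM in K5-RANKL 2 against 398 and 368. Acta2 stood at 128 CPM against 118 and 133, and Cnn1 at 18.1 CPM against 13.6 and 19.1. Adamts9 and Adamts4 were the members farthest below in K5-RANKL 2, by −0.77 and −0.50 log2. Without that library Adamts9 rose by 1.88 (edgeR adjusted p = 3.04e-11) and 29 members were called higher and 2 lower.

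**Figure D5:**
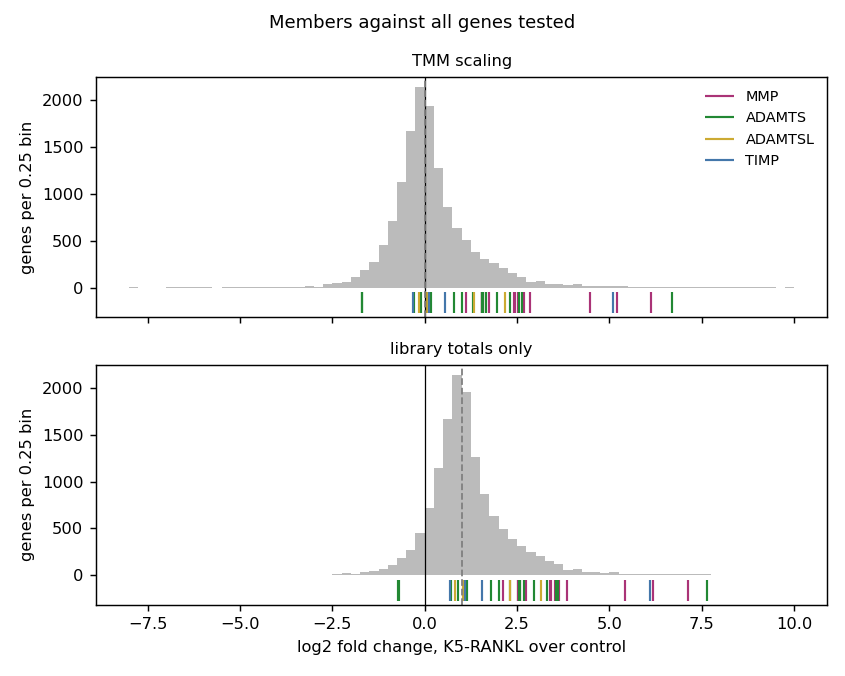
Number of genes (y axis) in each bin of log2 fold change (x axis) for all 14044 genes tested, with TMM scaling above and library totals below; coloured ticks under each histogram are the tested members by family, the dashed line is the median of all genes and genes beyond the axis are in the end bins. The median of the 41 tested members is 1.55 above and 2.54 below, where the median of all genes is 0.01 and 1.01, and the 16 members that passed the filter only with the help of K5-RANKL libraries are included.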

How the data were processed

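The authors deposited raw read counts per gene, whole numbers with no normalization; per the submitters' processing notes reads were aligned with STAR to mm10, and per the labels' protocols libraries came from a stranded mRNA kit. Counting tool, annotation and strand setting: not given in the sources used here. Groups follow the genotype label; the labels give no replicate numbers, so those used follow deposition order and pair nothing. Genes passing filterByExpr (minimum count 10; 14044 genes) were TMM-scaled; the two-sided test was the quasi-likelihood F-test of edgeR with robust estimation, Benjamini-Hochberg adjusted over all genes; SE is the log2 fold change over the square root of F. Versions used: edgeR 4.0.16, DESeq2 1.42.0 and limma 3.58.1, under R 4.3.3. The test was checked on simulated counts. No library was a copy of another: a chi-square per gene within groups was 6.26 to 38.3, where sampling noise gives about 1. Alternatives were other scalings, filters, tests and thresholds, and leaving out each library.

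Positions and start sites are RefSeq GRCm38.p6, matched by Entrez identifier; 36 of 50 members had a start site in the table. Exon lengths are the union of GENCODE M21 exons. By those exons 13 members share bases with a gene on the opposite strand; without a stated strand setting such reads are uncertain. By rule, every library's value is given for TIMPs and for members with at least 5 CPM in a group and an absolute log2 fold change of at least 1, and up to 4 genes of each other list are named. Mmp7, Mmp13, Adamts17 and Adamts18 are given by library, and further genes of the activation and substrate lists are named, outside that rule and after their values were seen. The members and lists were chosen with earlier results of these data known. A further metalloproteinase gene is not reported here.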

Additional observations from a re-analysis of the deposited data

How the results depend on the processing

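With RLE or upper-quartile scaling, TMM without the 20 most abundant genes, DESeq2, voom, edgeR without robust estimation or an adjusted p under 0.01, 29 members rose and 2 fell, as reported; leaving out each library gave 29 to 30 and 2, but not always the same genes: without control 3 Adamts18 was not tested and the 2 that fell were Adamts17 and Adamts10 (−0.41, edgeR adjusted p = 0.0202). Without the low-count filter 32 rose and 2 fell. By library totals 39 rose and 1 fell. With at least 50 counts in 3 libraries 24 rose and 0 fell, because Adamts17 and Adamts18 were then not tested. Leaving out each library gave 8588 to 9230 genes called, against 9304. Of the 31 members that could be fitted in all 15 refits, 24 kept direction and call in all and 26 kept direction; 6 others kept both in the refits that tested them.

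Members that did not pass changed sign in some refits. By library totals Adamts10 stood at 0.71, Adamts2 at 0.89, Adamtsl1 at 0.83 and Timp4 at 0.68. Leaving out each library gave ranges that cross 0: −0.18 to 0.026 for Adamts2, −0.055 to 0.29 for Adamts20, −0.28 to 0.029 for Adamtsl1, −0.026 to 0.092 for Adamtsl3, −0.089 to 0.27 for Adamtsl5 and −0.15 to 0.21 for Mmp17. The signs turned without control 3 (Adamts2, Adamts20), control 2 (Adamtsl1, Adamtsl5), K5-RANKL 3 (Adamtsl3, Mmp17) or control 1 (Mmp17, −0.019). No paired analysis was possible because the labels give no replicate numbers. Depth limits the 6 untested members with counts, the scarcest genes with a fold change, and Mmp7 and Mmp16, whose size rests on control 3.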
